A study of Mus musculus with 6 samples.

Results

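The enzymes of heme synthesis were examined in the liver of mouse pups that expressed a human *SRY* transgene. All probes whose symbol was *Alas1*, *Alas2*, *Alad*, *Uros*, *Urod*, *Cpox*, *Ppox* or *Fech* were taken from the liver table, which gave 14 probes for 8 genes among 25697 probes for 17914 genes on the array. Of these, 11 probes, at least 1 for each gene, were detected on 3 or more of the 6 arrays and were tested among 10734 probes in all. The other 3, a pair for *Cpox* (ILMN_1249402 and ILMN_2739182) and 1 for *Fech* (ILMN_1229519), were detected on 0 arrays.

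Total RNA came from the liver of male FVB pups (FVB/N in the methods) at postnatal day 6, with 3 hSRY-ON and 3 hSRY-OFF arrays, which the study describes as biological triplicates. hSRY-ON pups carried the Signalox-hSRY transgene, a single copy at the *H11* locus of 1 responder line. It had been recombined in the one-cell embryo by Cre protein from the egg of a *Ddx4-Cre* mother, so that the broadly active CAG promoter drove FLAG-tagged human SRY together with EGFP throughout the body. The hSRY-ON pups used for the arrays did not carry *Ddx4-Cre* themselves. For hSRY-OFF the methods name mice with the same transgene left unrecombined, in which the CAG promoter drives DsRed2 in place of SRY. The labels give hSRY-OFF with no further genotype. Elsewhere the study uses littermates without this transgene as controls. It calls the array controls age-matched and does not say whether they shared mothers or litters with the hSRY-ON pups. A difference of mother or litter, if there was one, cannot be told apart from that of the transgene. By the study's description the hSRY-ON pups suckled poorly, grew slowly, accumulated fat in the liver and died young, so the effect of the transgene and that of nutrition cannot be told apart in this comparison.

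Heme is built from glycine and succinyl-CoA. The first step, catalyzed in mitochondria by 5-aminolevulinate synthase, is the rate-limiting one in liver, and it has a pair of isoforms from separate genes. ALAS1 serves all tissues and is repressed by heme, and in hepatocytes it chiefly supplies the cytochromes P450. ALAS2 is restricted to red cell precursors, where it supplies hemoglobin. The following steps run in the cytosol (among them ALAD, UROS and UROD) and end in mitochondria (CPOX, PPOX and FECH, which inserts the iron), and the same genes serve both cell types. The liver of a newborn mouse still holds red cell precursors, so RNA from whole liver mixes both sources. In such RNA, fewer cells of a type and less RNA per cell cannot be told apart.

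Promoter windows ran from 250 bases before to 50 bases after the annotated start (RefSeq, GRCm38.p6). Those of 7 of these 8 genes were taken, with *Fech* left out of the search. They were searched on both strands for the GATA letters AGATAA and TGATAA, for the NRF1 palindrome, GCGCA followed by its reverse complement TGCGC, and for the SRY-type letters AACAAT and AACAAAG. The stretches that set the isoforms apart are shown 5′ to 3′ along the gene's own strand, with the matched letters in capitals. For *Alas1* (chr9:106247906-106247935, minus strand) the match is the NRF1 palindrome, which lies -195 to -186 bases from 1 annotated start and 30 to 39 bases into the transcript of the other. For *Alas2* (chrX:150547279-150547388, plus strand) and *Cpox* (chr16:58670070-58670179, plus strand) it is the GATA letters, read here as their reverse complement.
Alas1: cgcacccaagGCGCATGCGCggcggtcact
Alas2: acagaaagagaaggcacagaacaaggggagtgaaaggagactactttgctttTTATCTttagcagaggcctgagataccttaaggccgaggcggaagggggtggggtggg
Cpox: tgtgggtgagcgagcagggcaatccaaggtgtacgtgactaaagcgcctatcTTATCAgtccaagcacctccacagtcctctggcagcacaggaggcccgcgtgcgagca

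The GATA letters lie at bases -86 to -81 from the start in both *Alas2* and *Cpox*. *Cpox* has another match at bases 5 to 10, and 1 *Uros* window has one at -68 to -63. GATA letters were present in 18.6% of all 32851 windows of this length. The NRF1 palindrome was present in 0.971% of windows, and among the heme synthesis genes searched in those of *Alas1* alone. The SRY-type letters were found in *Alad* (-228 to -223) and *Urod* (-107 to -102), against 15.7% of all windows. They were not found in the windows of *Alas1*, *Alas2*, *Cpox*, *Ppox* or *Uros*. A match is a description of the letters only.

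The median intensity over all probes was 147 to 165 per array, with 40.2% to 41.9% of probes detected (10318 to 10762 probes). hSRY-OFF replicate 3 was the dimmest of its group, with a median of 147 against 163 and 165. Hepatocyte markers were detected on every array, apart from *Tat* and *Fgb*, which did not pass the filter. Their 9 tested probes summed to 159782 to 163508 intensity units in hSRY-OFF and 144734 to 152191 in hSRY-ON. The mean log2 intensity of the 9 was 12.45 in hSRY-OFF and 12.02 in hSRY-ON, a difference of -0.43 with no overlap. Of these probes 4, for *Alb*, *Ttr* and *Serpina1a*, were called lower in hSRY-ON, against 17.3% of all tested probes. The *Alb* probe was dim, at 202 to 448 in the deposited intensities, against 31211 to 35955 for that of *Apoa1*. hSRY-OFF replicate 3 stood apart from the other hSRY-OFF arrays in red cell and megakaryocyte markers.

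Of the 11 heme synthesis probes tested, 4 rose in hSRY-ON livers, 0 fell and 7 did not pass the test (limma, Benjamini-Hochberg adjusted p under 0.05 over all tested probes). The 4 probes belong to 3 genes, namely both isoforms of the first enzyme and *Fech*, the last. Over all tested probes 33.1% were called, 15.8% higher and 17.3% lower. The 3 hSRY-ON values lay entirely above the 3 hSRY-OFF values at 6 of the 11 probes, against 25.4% of all tested probes, and entirely below them at 0, against 24.6%. The median difference over the 11 probes was 0.49 on the log2 scale, against 0.0173 over all tested probes, and 10 of the 11 differences were positive.

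**Figure D1:**
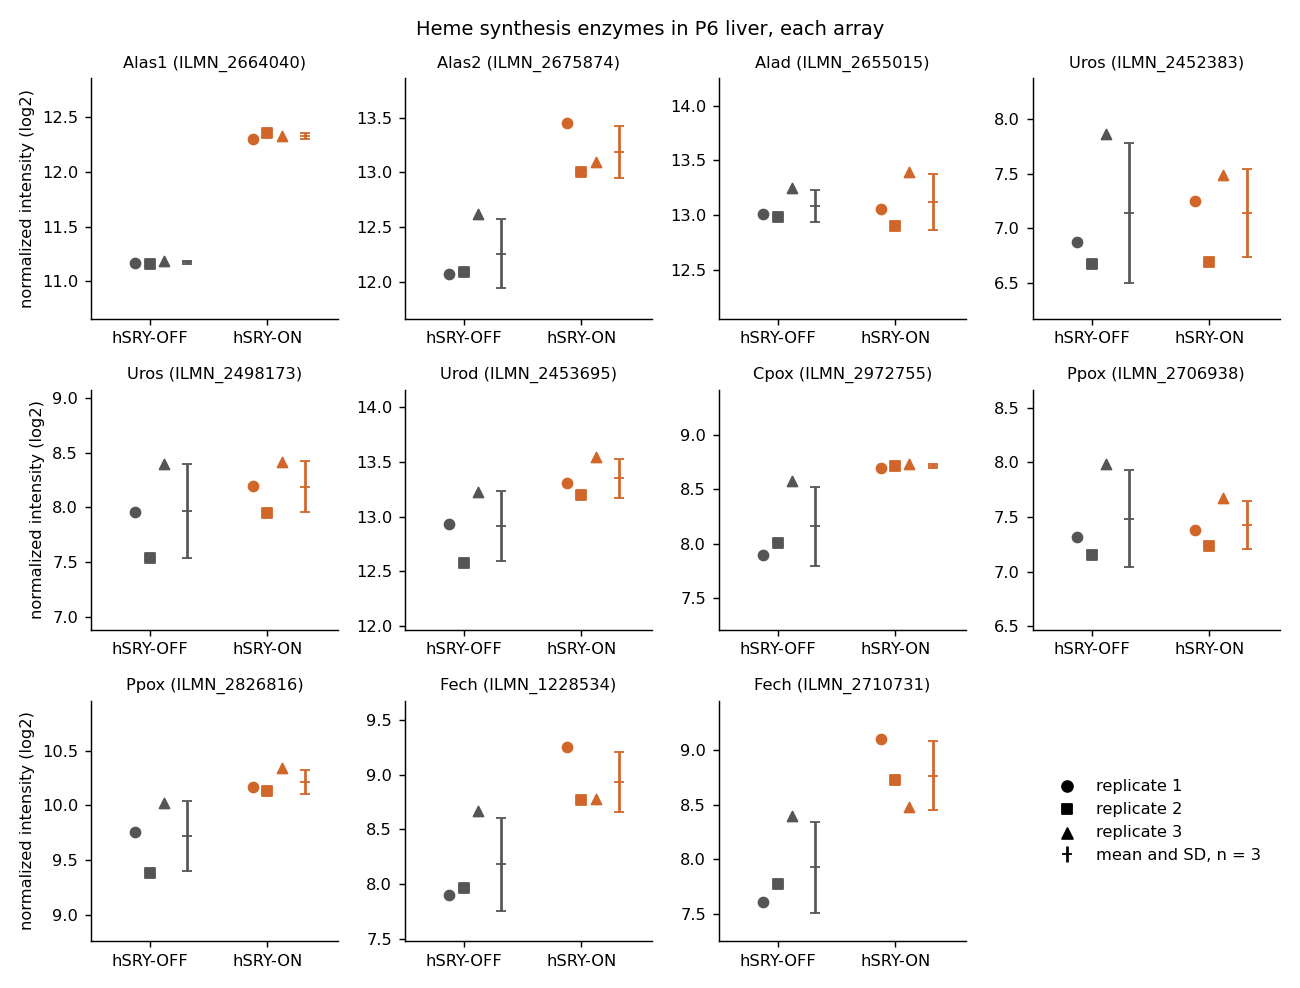
Normalized log2 intensity of the 11 tested heme synthesis probes on each array (1 panel per probe, y axis in log2 units with its own range in each panel). Symbols mark the replicate number, and the bar gives the mean and SD of the 3 arrays of a group. *Alas1* separated the groups with little spread, and hSRY-OFF replicate 3 (grey triangle) was the highest hSRY-OFF array in all 11 panels.

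*Alas1*, the isoform that serves all tissues, showed the clearest change in the pathway. Its probe (ILMN_2664040) had log2 intensities of 11.17, 11.16 and 11.19 in hSRY-OFF replicates 1 to 3 and of 12.30, 12.35 and 12.33 in hSRY-ON replicates 1 to 3. The groups were far apart, and the values within each were nearly the same. The means were 11.17 ± 0.014 and 12.33 ± 0.025 (SD, n = 3 each). *Alas1* was thus 2.23-fold higher in hSRY-ON, a log2 difference of 1.16 ± 0.11 (SE, 95% interval 0.91 to 1.40, limma adjusted p = 0.000434). In the deposited intensities, before any normalization, the same probe read 2672, 2722 and 2156 in hSRY-OFF and 5411, 5117 and 4408 in hSRY-ON. The call held under all 14 alternative settings, with differences of 1.14 to 1.17 when single arrays were left out.

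*Alas2*, the red cell isoform, rose as well (ILMN_2675874). Its log2 intensities were 12.07, 12.08 and 12.62 in hSRY-OFF and 13.45, 13.00 and 13.09 in hSRY-ON. hSRY-OFF replicate 3 and hSRY-ON replicate 1 were each the high array of their group, and the groups did not overlap. The difference was 0.93 ± 0.20 (SE, 95% interval 0.46 to 1.39), or 1.90-fold, with a limma adjusted p of 0.0117. The spread within groups, with SDs of 0.31 and 0.24, was much wider than for *Alas1*. Without hSRY-OFF replicate 1 the *Alas2* call was lost (difference 0.83, adjusted p = 0.0516).

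The isoforms were also set side by side within each array. With 3 against 3 arrays the exact test cannot give a p under 0.1, so it could not decide whether they changed unequally. The log2 value of *Alas2* minus that of *Alas1* was 0.90, 0.92 and 1.43 in hSRY-OFF and 1.15, 0.65 and 0.76 in hSRY-ON, and the groups overlapped. The *Alas2* difference was smaller than the *Alas1* difference by 0.23 on the log2 scale (-0.23, exact two-sided permutation test, p = 0.4, where the smallest p for 3 against 3 arrays is 0.1). It lay between -0.38 and -0.056 when single arrays were left out, and the value nearest to 0 was obtained without hSRY-OFF replicate 3.

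**Figure D2:**
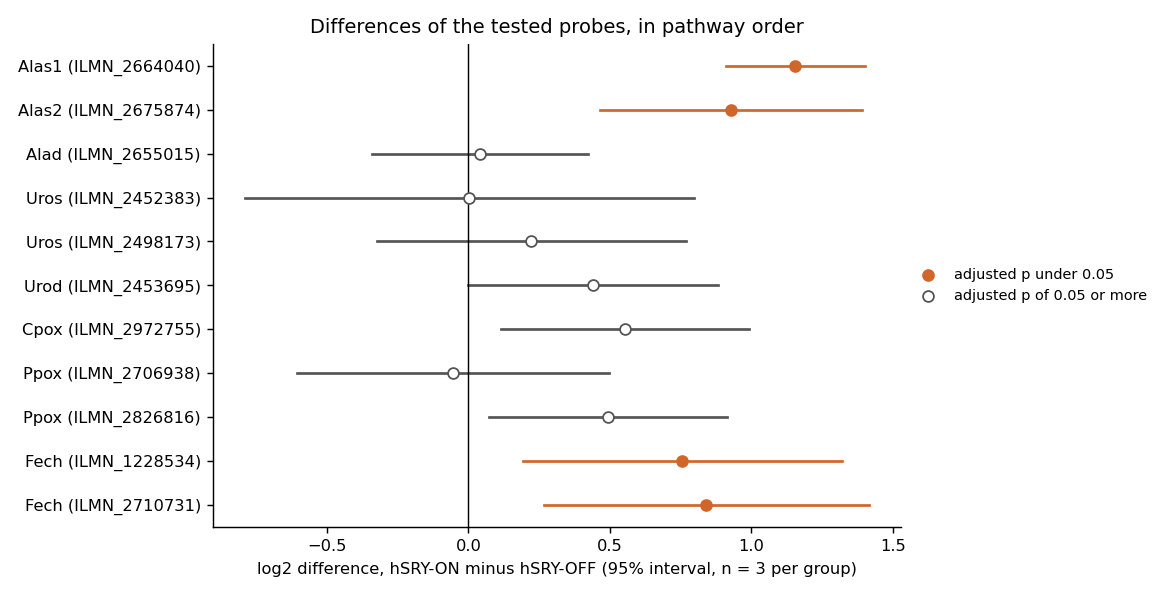
Log2 difference between hSRY-ON and hSRY-OFF (x axis, points) with its 95% interval (bars, n = 3 arrays per group) for the 11 tested probes in the order of the pathway, where filled points have an adjusted p under 0.05. The called probes sit at the first step (*Alas1* 1.16, *Alas2* 0.93) and the last (*Fech* 0.76 and 0.84), with those between ranging from -0.05 to 0.55.

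In the cytosolic steps no probe passed the test. *Alad* joins pairs of aminolevulinate into porphobilinogen. Its probe (ILMN_2655015) read 13.00, 12.98 and 13.25 in hSRY-OFF and 13.06, 12.90 and 13.40 in hSRY-ON. The groups overlapped throughout, and the difference was 0.04 ± 0.16 (SE, 95% interval -0.34 to 0.42), an interval that leaves out a rise of the size measured for *Alas1*.

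*Uros*, which closes the ring, had a pair of tested probes. ILMN_2498173 read 7.96, 7.54 and 8.40 in hSRY-OFF and 8.20, 7.95 and 8.42 in hSRY-ON, a difference of 0.22 ± 0.23 (SE, adjusted p = 0.497). The other, ILMN_2452383, read 6.87, 6.68 and 7.87 in hSRY-OFF and 7.25, 6.69 and 7.48 in hSRY-ON. Its difference was 0.0022 ± 0.34 (SE), with the groups overlapping on both probes and a wide 95% interval of -0.79 to 0.80. *Urod*, which removes carboxyl groups from the side chains, read 12.93, 12.58 and 13.22 in hSRY-OFF and 13.31, 13.20 and 13.55 in hSRY-ON (ILMN_2453695). Only hSRY-OFF replicate 3 reached into the hSRY-ON range. The *Urod* difference was 0.44 ± 0.19 (SE, 95% interval -0.0018 to 0.88, adjusted p = 0.112).

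Of the mitochondrial oxidases that follow, *Cpox* came close to the threshold. Its detected probe (ILMN_2972755) read 7.89, 8.01 and 8.57 in hSRY-OFF and 8.70, 8.71 and 8.73 in hSRY-ON. All 3 hSRY-ON arrays lay above the hSRY-OFF arrays, the nearest of which was replicate 3. The difference was 0.55 ± 0.19 (SE, 95% interval 0.11 to 0.99, adjusted p = 0.0576). The call depended on the processing, since *Cpox* passed in 5 of 14 alternative settings, among them that without hSRY-OFF replicate 3 (0.76, adjusted p = 0.0116).

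*Ppox*, the next oxidase, had a pair of tested probes with unlike differences. ILMN_2826816 read 9.75, 9.38 and 10.02 in hSRY-OFF and 10.17, 10.13 and 10.34 in hSRY-ON, with no overlap and a difference of 0.49 ± 0.18 (SE, adjusted p = 0.0711). ILMN_2706938 read 7.32, 7.15 and 7.99 in hSRY-OFF and 7.38, 7.24 and 7.67 in hSRY-ON, with full overlap and a difference of -0.05 ± 0.24 (SE, adjusted p = 0.878). Which of them follows the *Ppox* transcript more closely was not tested.

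*Fech*, ferrochelatase, completes heme by inserting iron, and both of its detected probes rose. ILMN_2710731 read 7.61, 7.77 and 8.40 in hSRY-OFF and 9.10, 8.72 and 8.48 in hSRY-ON, a difference of 0.84 ± 0.25 (SE, 95% interval 0.27 to 1.42, 1.79-fold, adjusted p = 0.0357). ILMN_1228534 read 7.90, 7.96 and 8.67 in hSRY-OFF and 9.25, 8.77 and 8.78 in hSRY-ON, a difference of 0.76 ± 0.24 (SE, 95% interval 0.19 to 1.32, 1.69-fold, adjusted p = 0.0475). The groups did not overlap on either probe, but hSRY-OFF replicate 3 (8.40 and 8.67) lay just under the lowest hSRY-ON array (8.48 and 8.77).

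The *Fech* calls were the least stable of the pathway. They were lost without hSRY-OFF replicate 1 (adjusted p = 0.155 for ILMN_1228534 and 0.123 for ILMN_2710731), without hSRY-OFF replicate 2 (0.148 and 0.114), without hSRY-ON replicate 1 (0.139 and 0.107) and without hSRY-ON replicate 2 (0.061 and 0.0652). That of ILMN_1228534 was also lost without hSRY-ON replicate 3 (0.0516). The number of heme synthesis probes called accordingly moved between 1, without hSRY-OFF replicate 1, and 6, without hSRY-OFF replicate 3, where *Cpox* and *Ppox* (ILMN_2826816, 0.64, adjusted p = 0.039) joined the 4. It was 3 without hSRY-ON replicate 3, and 2 when any of the remaining arrays was left out.

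**Figure D3:**
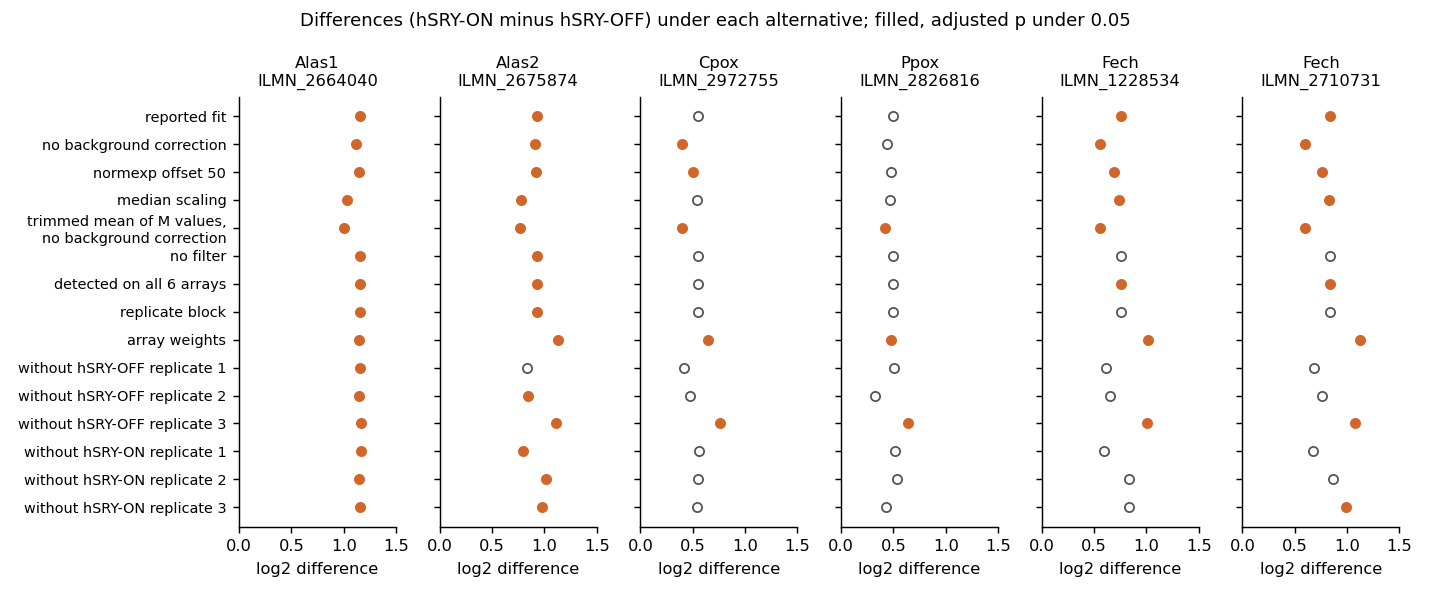
Log2 difference (x axis) of 6 probes under the reported fit and 14 alternative settings (rows), where filled points have an adjusted p under 0.05. *Alas1* was called under every setting and *Alas2* under all except that without hSRY-OFF replicate 1, whereas *Cpox*, *Ppox* and *Fech* changed sides of the threshold.

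Red cell markers varied between the same arrays. The mean log2 intensity of 21 erythroid marker probes was 9.44, 9.09 and 10.15 in hSRY-OFF and 10.45, 10.06 and 10.46 in hSRY-ON. The groups overlapped, since hSRY-OFF replicate 3 lay above hSRY-ON replicate 2. The summed intensity of these probes ran from 31351 to 61124 in hSRY-OFF and from 59385 to 78785 in hSRY-ON. Of 22 marker probes tested, 5 for 3 genes rose, where 15.8% of all tested probes were called higher and 17.3% lower. They were those of *Rhag* (3 probes, 1.33, 1.38 and 1.33), a membrane protein of the Rh complex, *Tspo2* (1.53, detected on 1 hSRY-OFF array) and *Ermap* (0.86). The single one that fell was *Nxpe2* (-0.94), and 16 did not pass the test. The median difference was 0.71. The number of markers that rose was 1 without hSRY-OFF replicate 1, 2 without hSRY-ON replicate 1 and 13 without hSRY-OFF replicate 3.

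Among the markers that define red cells, *Hbb-b1*, a beta-globin gene, differed by 0.47 ± 0.31 (SE, adjusted p = 0.27). *Slc4a1*, the anion exchanger of the red cell membrane, differed by 0.71 ± 0.29 (SE, adjusted p = 0.0964). *Tfrc*, the transferrin receptor that brings iron to these cells, differed by 0.56 and 0.59 (adjusted p = 0.0622 and 0.0858). *Hba-a1* held the top rank on all arrays and could not differ after quantile normalization, so it was kept out of the mean. *Add2*, *Epb42*, *Bpgm*, *Cldn13* and *Rhd* were detected on 0 arrays.

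hSRY-OFF replicate 3 was the highest hSRY-OFF array at 11 of 11 heme synthesis probes and at 21 of 21 erythroid marker probes, against 33.7% of all tested probes. In the deposited intensities it was highest at 7 of 11 and 19 of 21, against 2.67% of all tested probes. After division of each array by its median over the tested probes, replicate 3 was highest at 11 of 11 and 21 of 21, against 43.5%. Its excess over the mean of the other hSRY-OFF arrays was 0.88 log2 units for the erythroid mean and 0.54 for *Alas2*. The same excess was 0.62 for *Cpox* and 0.74 and 0.71 for *Fech*. Members with no called probe had it as well, with 0.65 (ILMN_2498173) and 1.09 (ILMN_2452383) for *Uros*. For *Ppox* the excess was 0.75 (ILMN_2706938) and 0.45 (ILMN_2826816), for *Urod* 0.47 and for *Alad* 0.26. The excess was thus not particular to the probes that rose in hSRY-ON. It was only 0.02 for *Alas1*, and -0.03 for the mean of the hepatocyte markers.

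**Figure D4:**
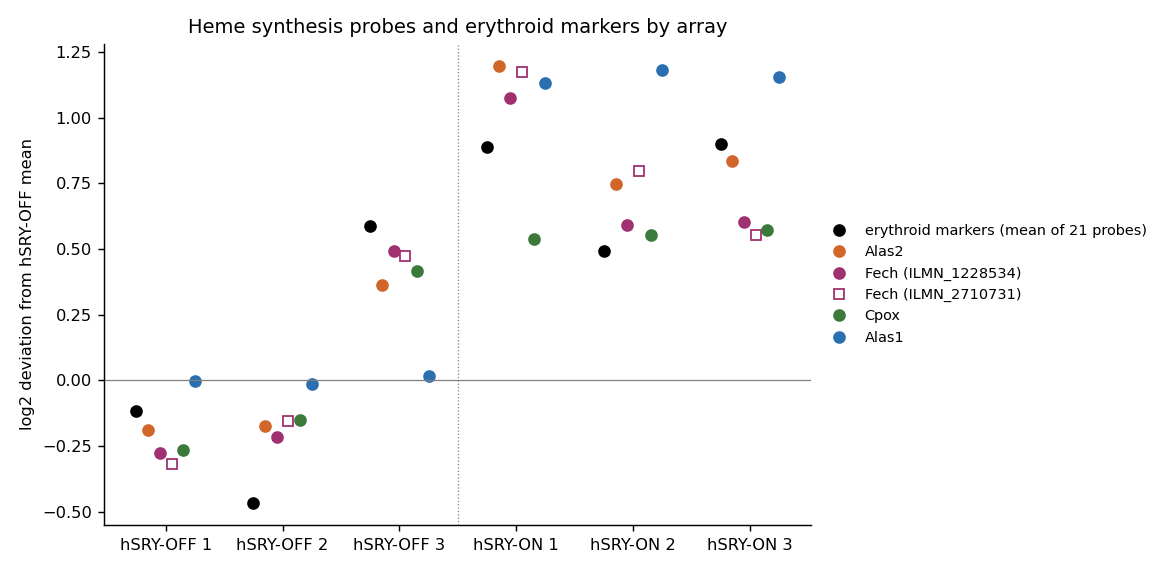
Log2 deviation from the hSRY-OFF mean (y axis) on each of the 6 arrays (x axis) for the mean of 21 erythroid marker probes, *Alas2*, both *Fech* probes, *Cpox* and *Alas1*. hSRY-OFF replicate 3 was raised for all of them except *Alas1*, which stayed near 0 on the hSRY-OFF arrays and near 1.16 on the hSRY-ON arrays.

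The erythroid mean itself differed by 0.76 between groups, and each member was also taken relative to it within the same array. *Alas2* minus the erythroid mean was 2.62, 2.99 and 2.47 in hSRY-OFF and 3.0, 2.95 and 2.63 in hSRY-ON, a difference of 0.17 with overlapping groups. The same measure differed by -0.005 and 0.08 for the *Fech* probes (ILMN_1228534 and ILMN_2710731) and by -0.21 for *Cpox*, again with overlap. For *Alas1* it was 1.73, 2.07 and 1.04 in hSRY-OFF and 1.85, 2.30 and 1.87 in hSRY-ON, which differed by 0.40 and overlapped because of the spread of the erythroid mean. It was lower in all hSRY-ON arrays for *Alad* (-0.72), *Uros* (-0.54 and -0.76) and the ILMN_2706938 probe of *Ppox* (-0.82). These relative values are descriptions, and the part of a different share of red cell precursors in the results for *Alas2*, *Fech* and *Cpox* was not tested.

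Markers of other cells also differed, where 15.8% of all tested probes were called higher and 17.3% lower. Of 7 megakaryocyte probes 6 rose, and their mean was 8.15 in hSRY-OFF and 9.32 in hSRY-ON with no overlap. hSRY-OFF replicate 3 (8.63) was again high for its group, 0.73 above the mean of the other hSRY-OFF arrays. Of 12 macrophage probes 1 rose and 4 fell, and of 9 endothelial probes 4 rose and 1 fell. The part of these cells in the heme synthesis results was not tested.

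**Figure D5:**
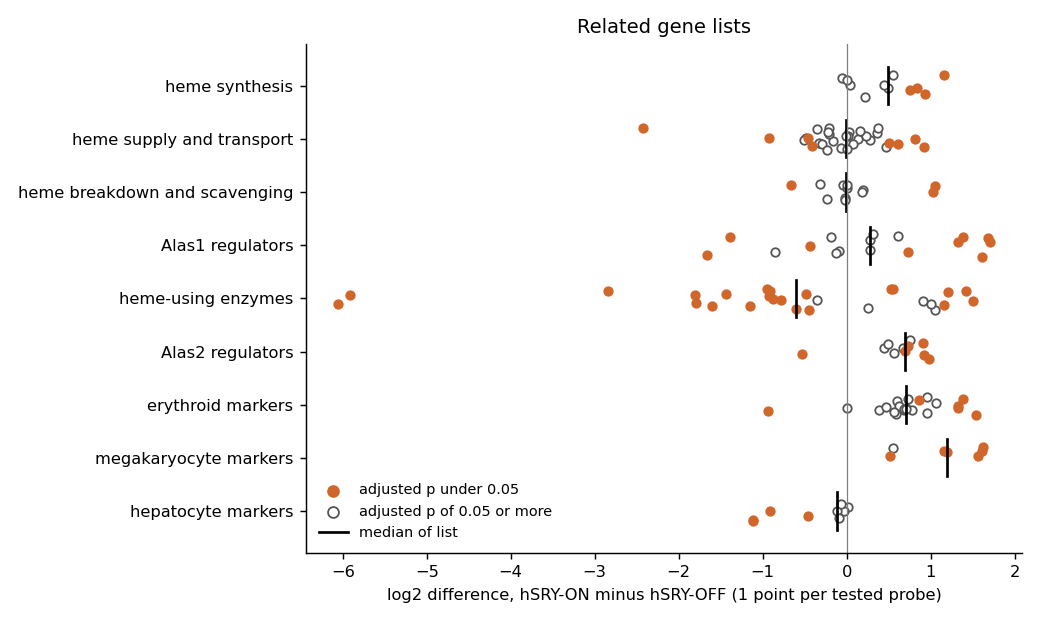
Log2 difference between hSRY-ON and hSRY-OFF (x axis) of each tested probe (points) in 9 gene lists (rows), with the median of each list as a black bar and filled points have an adjusted p under 0.05. Heme-using enzymes lay mostly below 0 (median -0.60), while heme synthesis (0.49), *Alas2* regulators (0.70), erythroid markers (0.71) and megakaryocyte markers (1.19) lay above it.

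The genes that supply substrates and iron to the pathway or carry its products did not move one way. Of 31 tested probes, 4 rose and 4 fell, against 15.8% and 17.3% of all tested probes. The other 23 did not pass the test, and the median difference was -0.012. Without replicate 1 or 2 of hSRY-OFF the calls dropped to 1 higher and 2 lower. *Slc25a38*, the mitochondrial glycine carrier that feeds the first step, had 3 probes, which differed by -0.07, 0.01 and -0.23 (adjusted p = 0.755, 0.965 and 0.242). *Abcb10* and *Abcb6*, transporters of the mitochondrial membranes, differed by 0.03 (adjusted p = 0.926) and -0.32 (adjusted p = 0.0822).

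The strongest call of this list was for a transporter. *Flvcr2*, first described as a heme importer, read 9.85, 10.04 and 10.19 in hSRY-OFF and 7.33, 7.35 and 8.13 in hSRY-ON. It fell by 2.42 on the log2 scale (SE 0.23, adjusted p = 0.000533), the largest difference of the list. *Fam210b*, a mitochondrial protein of red cell precursors, fell by 0.93 (SE 0.17, adjusted p = 0.00621). *Hebp1*, a cytosolic heme-binding protein, rose by 0.62 (SE 0.14, adjusted p = 0.016, but 0.0667 and 0.0603 without hSRY-OFF replicates 1 and 2), and *Shmt2*, which makes glycine in mitochondria, rose by 0.93 on ILMN_2702703 (SE 0.14, adjusted p = 0.00342) but differed by only 0.08 on ILMN_1224942 (adjusted p = 0.757).

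On the side of breakdown, both heme oxygenases rose. *Hmox1*, the inducible enzyme, read 9.08, 9.29 and 9.29 in hSRY-OFF and 10.44, 9.91 and 10.41 in hSRY-ON, a difference of 1.03 ± 0.17 (SE, adjusted p = 0.00452). *Hmox2*, the constitutive enzyme, read 9.02, 9.35 and 9.24 in hSRY-OFF and 10.34, 10.40 and 10.01 in hSRY-ON, a difference of 1.05 ± 0.16 (SE, adjusted p = 0.00293). Neither overlapped between groups, and both calls held under all 14 alternative settings. Of the 12 probes for breakdown and scavenging these were the only ones that rose, against 15.8% of all tested probes. The probe of *Lrp1*, the receptor for heme bound to hemopexin, fell by 0.67 (SE 0.21, adjusted p = 0.0441) and was detected on 1 hSRY-ON array, and its call was lost in 11 of 13 alternative settings.

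Among the regulators of *Alas1*, 6 of 17 tested probes rose and 3 fell, against 15.8% and 17.3% of all tested probes. *Ppargc1a*, the coactivator that links fasting to *Alas1*, read 6.21, 6.60 and 7.29 in hSRY-OFF and 8.12, 9.62 and 7.47 in hSRY-ON. It rose by 1.70 ± 0.53 (SE, adjusted p = 0.0449) with no overlap but a wide spread, and the call was lost in 9 of 14 alternative settings, among them leaving out any 1 array except hSRY-ON replicate 3. *Cebpb*, a factor of the fasting and acute phase response, rose by 1.39 ± 0.20 (SE, adjusted p = 0.00266), whereas its relative *Cebpa*, a factor of the mature hepatocyte, fell by 1.66 (SE 0.27, adjusted p = 0.00392).

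*Nr1i3*, the drug-sensing receptor CAR, fell by 1.39 (SE 0.22, adjusted p = 0.00349). *Nr1d1*, which encodes the repressor REV-ERB alpha, a protein that binds heme itself, rose by 1.33 ± 0.23 (SE, adjusted p = 0.00559), although it was detected on 1 hSRY-OFF array. *Ncor1*, the corepressor that REV-ERB alpha recruits, rose by 1.61 ± 0.14 (SE, adjusted p = 0.000356). *Nrf1*, which encodes the factor whose palindrome is shown above for *Alas1*, differed by 0.28 (adjusted p = 0.283), a gene added here for that sequence after its value was seen.

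Among the regulators of *Alas2*, 5 of 11 tested probes rose and 1 fell, against 15.8% and 17.3% of all tested probes. The median difference of this list was 0.70. *Eif2ak1*, the heme-sensing kinase that ties globin synthesis to heme, rose by 0.74 ± 0.17 (SE, adjusted p = 0.0169). *Ldb1* and *Lmo2*, partners in the GATA1 complex, rose by 0.92 ± 0.15 (SE, adjusted p = 0.00455) and 0.70 ± 0.19 (SE, adjusted p = 0.0253). *Gata1* itself, the factor that binds the GATA letters, rose by 0.90 ± 0.26 on ILMN_1237279 (SE, adjusted p = 0.0354) and differed by 0.57 ± 0.37 on ILMN_2935686 (SE, adjusted p = 0.266). *Aco1*, which encodes an iron-sensing protein that blocks *Alas2* translation, was not well above background in hSRY-ON (0 arrays) and at least 1.21-fold lower there (adjusted p = 0.0282).

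hSRY-OFF replicate 3 was the high hSRY-OFF array for *Eif2ak1* (10.10, against 9.67 and 9.61), *Lmo2* (11.22, against 10.79 and 10.54) and *Gata1* (ILMN_1237279, 6.98, against 6.26 and 5.88). Several of these calls rested on single arrays. Those of *Lmo2* and *Gata1* were lost in 5 and 6 of 14 alternative settings and that of *Eif2ak1* in 3, all by adjusted p, and that of *Aco1* in 8 of 13. The count of *Alas2* regulator probes called higher was 1 without replicate 1 of either group, 2 without hSRY-OFF replicate 2, 3 without replicate 2 or 3 of hSRY-ON and 8 without hSRY-OFF replicate 3.

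The enzymes that use heme or work beside those that do mostly fell, with a median of -0.60. Of 27 tested probes 16 were called lower and 6 higher, against 17.3% and 15.8% of all tested probes. The count called higher ranged from 2, without hSRY-ON replicate 1 or without replicate 2 or 3 of hSRY-OFF, to 9 without hSRY-ON replicate 3. *Cyp1a2*, a drug-metabolizing P450 of the liver, read 10.91, 11.34 and 11.57 in hSRY-OFF and 4.94, 5.38 and 5.77 in hSRY-ON (ILMN_2739847). It fell by 5.91 on the log2 scale (SE 0.25, adjusted p = 3.28e-05) to a level that 1 hSRY-ON array detected. hSRY-ON replicates 1 and 2 lay under the detection floors of their arrays (5.62 and 5.74), so the size of the fall is not well measured. *Cyp2e1* fell by 2.84 (SE 0.31, adjusted p = 0.000893). *Cyp51*, the P450 of cholesterol synthesis, fell by 1.80 (SE 0.13, adjusted p = 0.000196), and *Cyp7b1*, which hydroxylates oxysterols, fell by 1.44 (SE 0.12, adjusted p = 0.000354). Not all of them fell. *Cyp4a14*, a fatty acid hydroxylase, rose by 1.51 ± 0.19 (SE, adjusted p = 0.00138), and the 3 probes of *Cyp27a1*, a mitochondrial sterol hydroxylase, rose by 1.15 to 1.42 (adjusted p = 0.00848 to 0.0389), genes named after their values were seen.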

How the data were processed

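Liver RNA was hybridized to Illumina MouseRef-8 v2.0 BeadChips. The deposited values are intensity per probe, neither background-subtracted nor normalized, each with a detection p-value deposited beside it. The study's methods name TCC for normalization, and the labels name limma (version not given). A count method was not applied to intensities. Here normexp (limma 3.58.1, R 4.3.3, nec with detection p, offset 16), quantile normalization and log2 were applied, and probes detected (p under 0.01) on 3 or more of 6 arrays were tested with lmFit and eBayes (adjusted p under 0.05). The offset shrinks differences of dim probes. Each probe was tested on its own, and levels of different genes were not tested against each other. Differences between probes were taken only within an array, to compare groups. The number of arrays, 3 per group, limits the precision. Unmatched sample columns numbered 0. The procedure was tested on simulated data.

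The members and the gene lists were chosen with earlier results of these data known. Named were all members, up to 4 called genes of the smallest p per related list, the called erythroid markers and a few others regardless of value. RefSeq holds 14307 of the symbols as current names and 2927 as older ones, and 904 were unmatched. Alternatives changed background correction, scaling, filter, replicate block, array weights or left out 1 array. Some items are not reported here.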

Additional observations from a re-analysis of the deposited data

How the results depend on the processing

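With 3 arrays per group, calls near the threshold depended on single arrays, and dim probes are limited by their signal over background. Leaving out single arrays moved the count of all probes called from 896 to 1941 higher and from 1144 to 2123 lower. It moved the heme synthesis count between 1 and 6 higher. For heme supply the range was 1 to 4 higher and 2 to 4 lower, for heme breakdown 0 to 1 lower, for heme-using enzymes 2 to 9 higher, for *Alas2* regulators 1 to 8 higher and 0 to 1 lower, and for erythroid markers 1 to 13 higher. The *Alas2* difference ranged from 0.79 to 1.11 and kept its call in 13 of 14 alternatives.

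Heme synthesis probes called higher numbered 2 without the filter and 2 with a replicate block, where *Fech* was lost (adjusted p = 0.0727 and 0.0725). Numbers in the labels do not say what same-numbered arrays share, and their deviations correlated by only 0.0248, 0.0955 and 0.0523, so the block was kept as an alternative. Trimmed mean scaling was run without background correction, so 2 choices changed at once there. Median scaling left 2 heme supply probes higher, and the block left 2 lower. Breakdown probes called lower numbered 0 with offset 50, no filter, detection on all 6 arrays or the block. *Alas2* regulators called lower numbered 0 with no background correction, offset 50, trimmed mean scaling or detection on all 6 arrays. Those called higher numbered 3 with median scaling, 3 without the filter and 8 with array weights. Erythroid markers called higher numbered 8 with no background correction, 8 with offset 50, 8 with trimmed mean scaling, 14 with the block and 15 with array weights, and those called lower 0 with detection on all 6 arrays. The causes were not tested.

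Differences near 0 changed sign. *Alad* was -0.087 with median scaling and -0.078 with trimmed mean scaling, and -0.099 to 0.15 without single arrays. *Uros* ILMN_2452383 was -0.013 with no background correction, -0.0062 with offset 50, -0.0069 with median scaling and -0.0076 with trimmed mean scaling, and -0.23 to 0.37 without single arrays. *Slc25a38* ILMN_2946905 was -0.089, -0.078 and -0.00065 with median scaling, trimmed mean scaling and array weights, and -0.15 to 0.16 without single arrays. The same ranges were -0.22 to 0.20 for *Ppox* ILMN_2706938, -0.15 to 0.24 for *Abcb10* and -0.21 to 0.034 for *Slc25a38* ILMN_1256420. Left-out arrays were not renormalized.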

Other observations

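Over the 6 arrays, the probes whose pattern was most like that of *Alas1* (Pearson r, a description in which both groups and all arrays are shared) were those of *Fbxo6* (0.9992), *Trip10* (0.9986), *Cert1* (0.9983), *Acot1* (0.9974) and LOC100045005 (0.997). They differed between groups by 1.54, 1.26, 0.73, 3.16 and 0.96 on the log2 scale. Those most like *Alas2* were *Eif2ak1* (0.9983), *Rps24* (0.9979), *Marchf2* (0.9977), *Fam214b* (0.9974) and *Dnajb6* (0.9956). They differed by 0.74, 0.28, 0.81, 1.11 and 0.65. With 6 arrays in 2 separate groups, high values of r are common: 607 probes had an r over 0.95 with *Alas1* and 173 with *Alas2*.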
